A study of Mus musculus with 32 samples.

Results

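Lung epithelial cells that had been cultured with the soluble factors of human lung fibroblasts were compared with cells of the same mice cultured with vehicle. Of the 32 libraries of the study, 8 enter this comparison: the Epcam+ libraries of mouse 1 to mouse 4 labelled SFs and those labelled vehicle, each pair from 1 mouse. All genes were compared, and 11716 of the 11818 genes in the count table had enough reads to be tested. Epcam+ cells (CD45-/CD31-/Epcam+) were taken from lungs of untreated C57BL/6J mice aged 8 to 14 weeks, and 300000 cells were seeded in Matrigel with an equal number of CCL206 cells, a line of mouse lung fibroblasts that mitomycin C had kept from dividing. The cultures received vehicle, soluble factors (SFs, 30 µg/mL), extracellular vesicles (EVs, 1000000000 particles per mL) or the proteoglycan osteoglycin (OGN, 10 µg/mL) for 72 h, after which the cells were re-sorted with CD326 microbeads and their RNA was sequenced. SFs are the protein-rich fractions that follow the vesicles when conditioned medium of MRC5 cells, a human fetal lung fibroblast line, is separated by size. They therefore are a mixture from 1 human cell line acting on mouse cells. Every Epcam+ culture, the vehicle-treated ones included, held CCL206 fibroblasts, and the bead sort is the step that separated the populations.

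Fibroblasts surround the alveoli and the airways, and their secreted proteins maintain the epithelial progenitors next to them. Alveolar type 2 (AT2) cells make surfactant and give rise to the flat alveolar type 1 (AT1) cells, while basal, secretory and ciliated cells line the airways. Lung epithelium is also a barrier with an innate immune function. When it senses microbes, injury or cytokines, it releases antimicrobial proteins, protease inhibitors and chemokines that attract neutrophils, largely through transcription factors of the NF-kB, C/EBP and STAT families.

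The Epcam+ libraries had between 3067660 and 16662822 counts with vehicle and between 1805914 (mouse 2) and 16299868 with SFs, so that 1 CPM (a count scaled to the library size) stood for 1.81 to 16.7 reads. Mitochondrial transcripts held 3.27 to 3.82% of the counts with vehicle and 2.88 to 3.76% with SFs. Epcam itself was at 278, 316, 315 and 261 CPM with vehicle and 260.3, 329, 269.6 and 251 with SFs, in mice 1 to 4. The population also held the AT2 transcripts Sftpb and Sftpc, the basal keratin Krt5, the club cell product Scgb1a1 and fibroblast collagens, so it is a mixture in which fewer cells of a type and less RNA per cell cannot be told apart. Values below are CPM after TMM scaling, always in the order of mice 1 to 4, and fold changes are log2 values from edgeR with their standard error (SE).

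With SFs 27 genes were called at an adjusted p under 0.05 (0.230% of the genes tested), 18 higher (0.154%) and 9 lower (0.0768%). Most changes were small. The median absolute log2 fold change of the 27 was 0.71, the range was 0.35 to 3.88, and 6 genes changed more than 2-fold (0.0512% of all genes). The ratio of SFs to vehicle had the same direction in 4 of 4 mice for 26 of the 27 (17.2% of all genes), with Slc26a4 as the exception at 3 of 4. For 17 of them the 4 libraries with SFs did not overlap the 4 with vehicle (3.54% of all genes), 12 on the higher side (2.06%) and 5 on the lower (1.49%). An unadjusted p under 0.05 was found for 913 genes (7.79%), 514 higher (4.39%) and 399 lower (3.41%). The called genes fell into a few groups: secreted defence proteins and chemokines, lysozymes, a cystine transporter and genes with high levels in fibroblasts on the higher side, and basal-cell keratins and airway secretory products on the lower side.

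Promoter sequences are shown for 5 of the higher genes, chosen after their matches were seen. They are the 3 defence genes with the smallest p (Chil1, Lcn2 and Saa3) and the chemokine genes Cxcl3 and Cxcl1, whose kappaB matches had the same letters. RefSeq windows of 250 bases before the start of transcription were matched by symbol to 22 of the 27 called genes and to 9119 of all genes tested, on GRCm38.p6. Each sequence runs 5′ to 3′ toward the gene, and capitals mark matches to the kappaB motif, to the STAT motif TTCNNNGAA or to the C/EBP motif TTGCNNAA on either strand.

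Chil1 (chr1:134181906-134182155, plus strand): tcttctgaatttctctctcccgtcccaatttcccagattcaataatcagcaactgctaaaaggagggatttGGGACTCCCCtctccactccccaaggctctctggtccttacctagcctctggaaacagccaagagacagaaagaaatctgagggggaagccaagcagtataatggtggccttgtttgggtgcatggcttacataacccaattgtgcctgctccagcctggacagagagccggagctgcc

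Lcn2 (chr2:32387740-32387989, minus strand): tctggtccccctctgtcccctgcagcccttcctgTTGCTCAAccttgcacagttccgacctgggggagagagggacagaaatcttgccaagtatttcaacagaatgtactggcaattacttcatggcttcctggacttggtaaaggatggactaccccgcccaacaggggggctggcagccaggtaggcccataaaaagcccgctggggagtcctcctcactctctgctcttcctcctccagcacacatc

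Saa3 (chr7:46715677-46715926, minus strand): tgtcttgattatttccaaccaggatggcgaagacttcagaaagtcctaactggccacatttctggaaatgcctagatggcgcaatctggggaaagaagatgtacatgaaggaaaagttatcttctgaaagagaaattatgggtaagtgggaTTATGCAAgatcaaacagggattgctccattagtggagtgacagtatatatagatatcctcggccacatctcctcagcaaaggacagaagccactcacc

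Cxcl3 (chr5:90785851-90786100, plus strand): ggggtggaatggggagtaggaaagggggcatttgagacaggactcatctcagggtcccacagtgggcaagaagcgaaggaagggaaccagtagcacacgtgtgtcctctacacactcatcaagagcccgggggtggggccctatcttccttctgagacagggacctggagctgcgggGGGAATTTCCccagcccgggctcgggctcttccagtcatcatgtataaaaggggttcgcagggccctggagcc

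Cxcl1 (chr5:90890995-90891244, plus strand): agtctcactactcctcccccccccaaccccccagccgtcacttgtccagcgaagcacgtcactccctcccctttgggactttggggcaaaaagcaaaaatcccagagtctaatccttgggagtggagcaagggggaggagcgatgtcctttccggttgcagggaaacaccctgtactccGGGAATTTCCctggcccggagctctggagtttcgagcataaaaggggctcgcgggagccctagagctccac

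The kappaB match of Chil1 lay 179 to 170 bases before the start, and those of Cxcl3 and Cxcl1 lay at 73 to 64 and 71 to 62 bases and had the same 10 letters. The C/EBP match of Lcn2 lay at 216 to 209 bases and that of Saa3, on the opposite strand, at 99 to 92 bases. Of the 22 matched genes, 3 had a kappaB match (Chil1, Cxcl3 and Cxcl1), compared with 7.10% of the 9119 genes and 5.94% of their 11696 windows. A C/EBP match was found in 10 of the 22, compared with 9.01% of genes and 7.47% of windows. These 10 were the higher genes Lcn2, Saa3, Slpi, Slc7a11, Lyz1, Spp1 and C3 and the lower genes Mt2, Retnla and Adh7. The STAT motif was found in 1 (Slc7a11), compared with 6.84% of genes and 5.61% of windows. In Slc7a11 the STAT and C/EBP matches did not overlap. These shares are descriptions of letters in short windows and were not tested.

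The strongest calls were genes of innate defence. Chil1, a chitinase-like protein secreted by epithelium and macrophages, was at 238, 171, 191 and 210.2 CPM with vehicle and at 535, 428, 456 and 541 CPM with SFs. The lowest value with SFs was above the highest with vehicle, and Chil1 rose 2.42-fold (log2 fold change 1.28 ± 0.08, adjusted p = 1.32e-09). Lcn2, the lipocalin that binds bacterial siderophores and so withholds iron, was at 37.9, 44.9, 26.3 and 42.5 CPM with vehicle and 154, 104, 134 and 157 with SFs. The groups again did not overlap, with the smallest ratio in mouse 2, and Lcn2 rose 3.76-fold (1.91 ± 0.14, adjusted p = 4.57e-08). Saa3, the serum amyloid A that is made locally in inflamed tissue, was barely detected with vehicle, with 18, 2, 4 and 1 reads, and had 174, 21, 81 and 87 reads with SFs. These were 1.07, 0.655, 0.822 and 0.284 CPM with vehicle and 10.5, 11.7, 13.4 and 15.2 with SFs. Saa3 had the highest fold change of the called genes (14.8-fold, 3.88 ± 0.31, adjusted p = 7.03e-08), but its size rests on those few reads in the vehicle libraries, of which mouse 4 had the lowest level and the highest ratio.

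Slpi, an inhibitor of neutrophil elastase and other serine proteases, was at 32.4, 26.9, 28.1 and 43.7 CPM with vehicle and 56.2, 63.7, 54.6 and 63.7 CPM with SFs. Every library with SFs was above every vehicle library, and Slpi rose 1.81-fold (0.85 ± 0.11, adjusted p = 0.000305). In the list of acute-phase and secreted defence genes 13 of 25 genes were tested, of which 4 rose, 1 fell (Bpifa1) and 8 were not called. Its median log2 fold change was 0.38, against 0.00 over all genes, and 12 of its 13 genes had positive values compared with 5858 of 11716. Like the other lists it was chosen with earlier results of these data known, and it holds the called genes named above. Its shift is therefore a description and not separate support. Members without a call included the iron oxidase Cp (0.28 ± 0.07, adjusted p = 0.148), the lipopolysaccharide-binding protein Lbp (0.40 ± 0.12, adjusted p = 0.317) and haptoglobin, Hp (0.10 ± 0.10, adjusted p = 0.864), which were chosen for mention after their values were seen. Saa1, Saa2, Orm1, Orm2 and Reg3g were not among the genes analysed here.

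**Figure D1:**
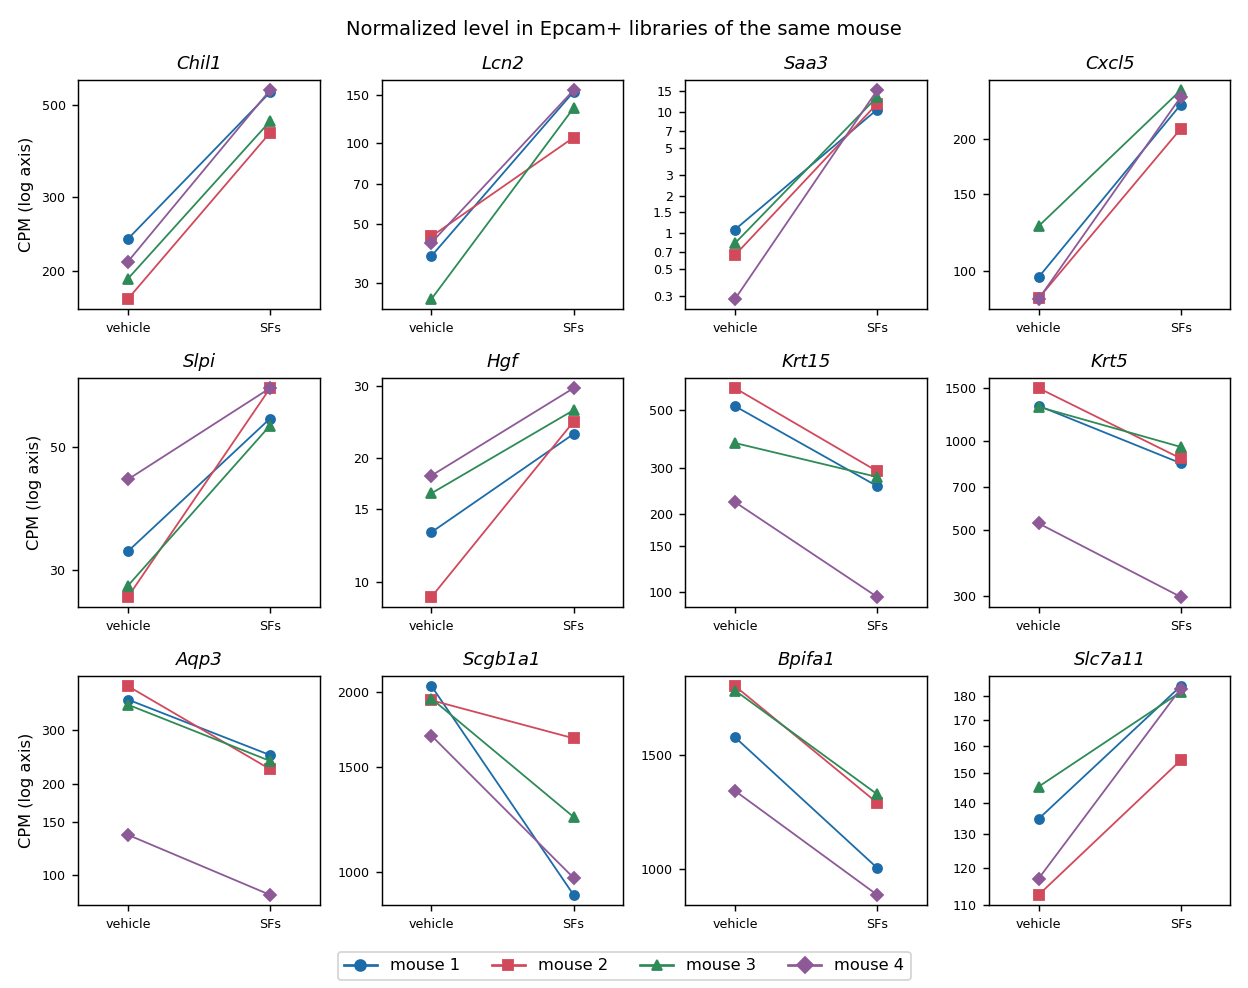
Normalized level (CPM, log axis, a different range in each panel) of 12 of the called genes with vehicle and with SFs in Epcam+ cells, where a line joins the 2 libraries of 1 mouse. All lines of Chil1, Lcn2, Saa3, Cxcl5, Slpi, Hgf and Slc7a11 go up and all lines of Krt15, Krt5, Aqp3, Scgb1a1 and Bpifa1 go down, and mouse 4 starts at the lowest level of Krt15, Krt5 and Aqp3.

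Chemokines that attract neutrophils through the receptor Cxcr2 were the next group. Cxcl5 was at 97, 86.8, 127 and 86.5 CPM with vehicle and 239.6, 211, 259 and 249 CPM with SFs. The groups did not overlap and Cxcl5 rose 2.42-fold (1.28 ± 0.11, adjusted p = 4.34e-07). Cxcl3 was at 26.2, 13.8, 22.8 and 17.3 CPM with vehicle and 43.5, 41.9, 50.8 and 59.4 with SFs, a rise of 2.34-fold without overlap (1.23 ± 0.17, adjusted p = 0.000394). Cxcl1 was at 25.8, 26.2, 9.65 and 19.6 CPM with vehicle and 41.2, 39.1, 30.5 and 26 with SFs. It was higher in each mouse, but the library of mouse 4 with SFs lay between the vehicle libraries of mice 1 and 2, and the groups overlapped (0.83 ± 0.17, adjusted p = 0.0478). Its call was kept in 5 of 15 alternative analyses. Of 15 tested chemokines and cytokines these 3 rose and 12 were not called, with a median of 0.16. Among the others, Ccl20, a chemokine for Ccr6-bearing lymphocytes and dendritic cells that was chosen after its values were seen, had 0.72 ± 0.18 (adjusted p = 0.173).

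The lists of NF-kB and STAT pathway genes held no called gene. Since 0.230% of all genes tested were called, 0 calls in lists of this size say little about these pathways. At an unadjusted p under 0.05, 4.39% of all genes were higher and 3.41% lower. None of 23 NF-kB subunits, feedback inhibitors and targets was called by edgeR (median 0.07), and 5 had an unadjusted p under 0.05, all higher. The smallest p values were those of the RNase Zc3h12a (0.59 ± 0.18, adjusted p = 0.338) and the kinase Ikbke (0.37 ± 0.14, adjusted p = 0.497). The inhibitor Nfkbia, itself a rapid NF-kB target, had -0.06 ± 0.07 (adjusted p = 0.91) and Nfkbiz, a cofactor needed for Lcn2 transcription, had 0.10 ± 0.11 (adjusted p = 0.884), both chosen after their values were seen. Of 20 STAT3 and C/EBP pathway genes 0 were called and 2 had an unadjusted p under 0.05, the receptor subunit Osmr (0.26 ± 0.10) and the AP-1 subunit Junb (-0.22 ± 0.09). Of 20 interferon-response and MHC class I genes 0 were called and 0 had an unadjusted p under 0.05 (median -0.03). By DESeq2 on the same libraries the count over all genes was 54, and its calls within these lists were not counted.

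Both lysozymes rose. Lyz1 was at 14.8, 11.5, 8.83 and 11.9 CPM with vehicle and 17.7, 26.3, 23.1 and 26 CPM with SFs. The groups did not overlap (0.88 ± 0.18, adjusted p = 0.0349), and mouse 1 had the smallest ratio. Lyz2, expressed in AT2 cells and in macrophages, was at 248, 205, 185 and 244 CPM with vehicle and 358, 234, 272 and 339 with SFs. The library of mouse 2 with SFs fell inside the vehicle range (0.46 ± 0.09, adjusted p = 0.0295). The coding sequences of Lyz1 and Lyz2 are closely similar, so reads could be assigned to either, and how the counting treated them is not given in the sources used here. C3, the central complement component, was at 653, 718, 714 and 840.4 CPM with vehicle and 845, 966, 1020.4 and 1139 with SFs, above the vehicle range in each library (0.44 ± 0.09, adjusted p = 0.0478). It was the called gene among 11 complement genes (median 0.16), of which 4 had a higher level at an unadjusted p under 0.05.

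Leukocyte markers were checked because Lyz2, Chil1 and Spp1 are also macrophage genes and CD45+ cells should have been removed. Of 16 leukocyte markers Lyz2, Cd14 and Cd68 were measured, and the defining markers Ptprc, Adgre1, Itgam, Itgax, Csf1r, Marco, Tyrobp and Fcer1g were not among the genes analysed here. Cd14, which epithelial cells also express, had 0.20 ± 0.09 (adjusted p = 0.595). Cd68 was at 5.62, 1.64, 2.88 and 4.82 CPM with vehicle and 6.03, 2.79, 4.45 and 6.28 CPM with SFs, and its change was 0.36 ± 0.36 (adjusted p = 0.872). On the scale of all 32 libraries the summed level of the 3 markers was 514, 464, 468 and 484 CPM with vehicle and 632, 553, 603 and 654 CPM with SFs, most of it Lyz2 and Cd14. Whether a change in leukocytes had a part in these results was not tested.

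Among genes of cystine import and redox metabolism a transporter and a pantetheinase rose. Slc7a11, the cystine-glutamate exchanger that supplies cysteine for glutathione, was at 135, 113, 145 and 117 CPM with vehicle and 184, 155, 182 and 183 CPM with SFs. The groups did not overlap, the library of mouse 2 was the lowest with SFs, and Slc7a11 rose 1.38-fold (0.47 ± 0.08, adjusted p = 0.00648). Of the 21 genes in the list of cystine import, glutathione and peroxide defence, it was the one called (median 0.00). Its partner subunit Slc3a2 had 0.00 ± 0.07 (adjusted p = 0.999), the glutathione synthesis enzyme Gclc had 0.25 ± 0.07 (adjusted p = 0.266) and the mitochondrial superoxide dismutase Sod2 had 0.19 ± 0.09 (adjusted p = 0.625), all chosen after their values were seen. Vnn1, a pantetheinase on the cell surface that yields cysteamine, was at 17.2, 14.7, 15.2 and 19 CPM with vehicle and 29, 35.8, 23.2 and 28.1 with SFs, without overlap (0.77 ± 0.14, adjusted p = 0.00997).

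Other membrane and signaling genes were higher as well. Slc26a4, the anion exchanger pendrin, was at 6.81, 5.90, 3.90 and 11.3 CPM with vehicle and 18.6, 5.59, 13.5 and 19.4 with SFs. It did not rise in mouse 2, and the groups overlapped (1.15 ± 0.22, adjusted p = 0.0289). Pik3r5, a regulatory subunit of the gamma form of PI3-kinase, was at 10.8 to 21.6 CPM with vehicle and 22.9 to 34 CPM with SFs (0.87 ± 0.14, adjusted p = 0.0043). Gpr137b, a membrane protein of lysosomes, was at 38.3 to 64.4 CPM with vehicle and 64.2 to 88.2 with SFs (0.50 ± 0.10, adjusted p = 0.0391). The groups of Pik3r5 did not overlap, and in Gpr137b the lowest library with SFs lay just under the highest with vehicle. Among 17 genes of iron uptake, storage and export, Lcn2 was the one called, 6 were higher at an unadjusted p under 0.05, and the median was 0.16.

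**Figure D2:**
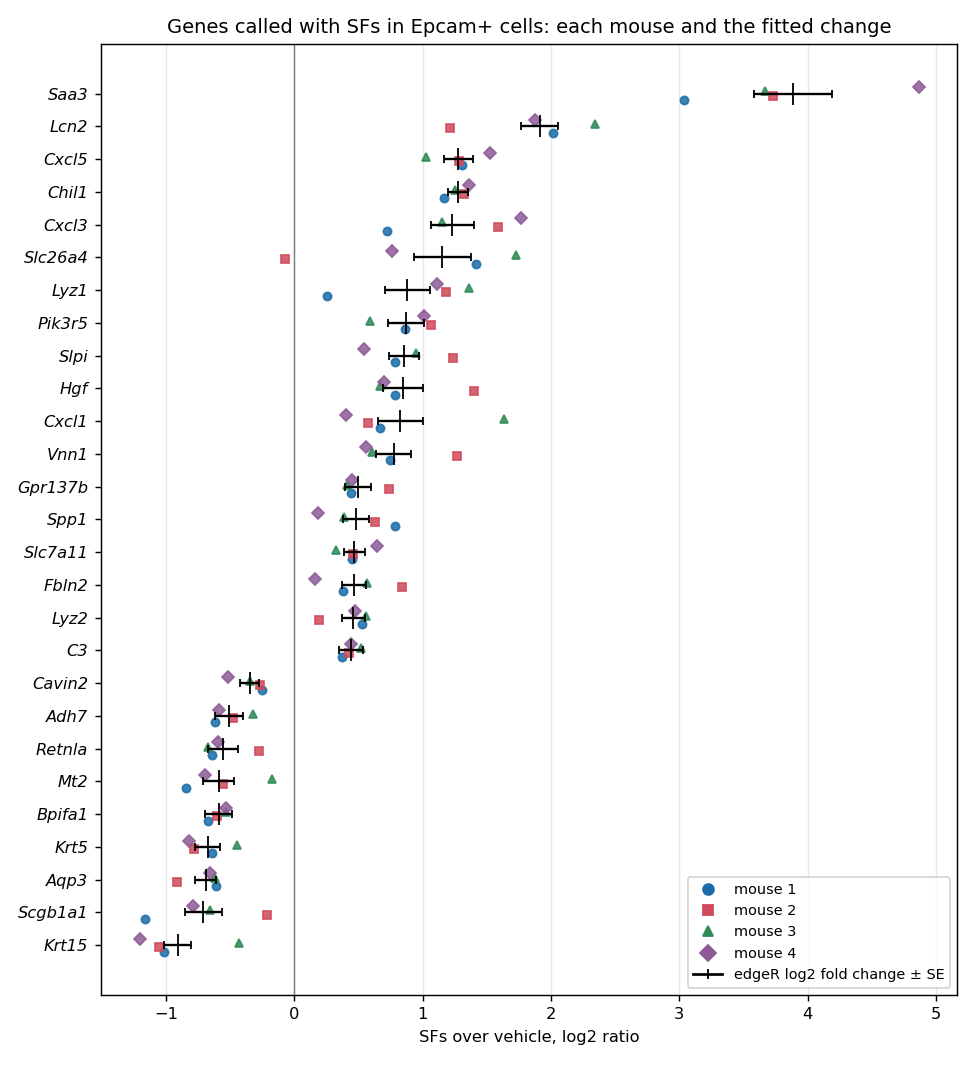
Log2 ratio of SFs to vehicle in each of the 4 mice (colored symbols) and the edgeR log2 fold change with its SE (black bars) for the 27 called genes, ordered by fold change. Saa3 stands at 3.88, the other higher genes between 0.44 and 1.91 and the lower genes between -0.35 and -0.91, and mouse 2 lies below 0 in Slc26a4.

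Hgf, the hepatocyte growth factor that mesenchymal cells make and epithelial cells receive through Met, was at 13.2, 9.18, 16.4 and 18.2 CPM with vehicle and 22.9, 24.6, 26.2 and 29.7 CPM with SFs. The groups did not overlap and Hgf rose 1.80-fold (0.85 ± 0.16, adjusted p = 0.0166). Fbln2, a matrix protein of elastic fibers and basement membranes, was at 152, 137, 159 and 234 CPM with vehicle and 198, 245, 235 and 262 with SFs (0.47 ± 0.09, adjusted p = 0.0349). Mouse 4 was the highest vehicle library and overlapped the SF range. Spp1, the secreted phosphoprotein osteopontin, was at 742, 783, 901 and 1211 CPM with vehicle and 1279, 1210.0, 1176 and 1377 with SFs (0.48 ± 0.10, adjusted p = 0.0478), again with mouse 4 as the highest vehicle library, inside the SF range. Of 18 ligands and receptors of the FGF, HGF and EGF families Hgf was the one called. The ligands Fgf7 (0.67 ± 0.19, adjusted p = 0.309) and Fgf10 (0.68 ± 0.25, adjusted p = 0.497), like Hgf made by mesenchyme, and the epithelial ligand Areg (-0.29 ± 0.11, adjusted p = 0.485) were not called and were chosen after their values were seen.

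These genes were also those with higher levels in the fibroblasts of the same cultures. In vehicle-treated cultures the level of Hgf in Epcam+ libraries was 11.6% of that in the CCL206 libraries (mean over 4 mice), that of Pik3r5 13.3%, of Spp1 18%, of Fbln2 20.8%, of Gpr137b 22.7%, of C3 23.8% and of Cxcl1 24.7%. By the same measure Chil1 stood at 382%, Lcn2 at 368%, Cxcl5 at 263% and Cxcl3 at 968%, with Slpi near equality at 94.9%. Saa3, barely detected with vehicle, is not given by this measure. With SFs its mean level and its log2 fold change were higher in the fibroblast libraries than in the Epcam+ libraries, as given further below. Most fibroblast genes also had higher values with SFs. The summed level of the study's fibroblast signature (9 of 10 genes measured) was 2253, 2239, 2407 and 3114 CPM with vehicle and 2606, 3111, 2999 and 3542 CPM with SFs, higher in each mouse, with overlapping groups. The signature's mean log2 CPM, used as the covariate below, was 6.86, 6.87, 6.78 and 7.11 with vehicle and 7.02, 7.24, 7.03 and 7.10 with SFs. By that measure it did not rise in mouse 4. None of its 9 genes was called, 5 were higher and 1 was lower (Fbln1, -0.54 ± 0.16) at an unadjusted p under 0.05, and its median was 0.24. Among 22 fibroblast and matrix genes 0 were called, 7 were higher at an unadjusted p under 0.05 and the median was 0.23. Of all genes 0.230% were called, and 4.39% were higher and 3.41% lower at an unadjusted p under 0.05. Decorin, Dcn, had 0.48 ± 0.12 (adjusted p = 0.203), the crosslinking enzyme Lox 0.46 ± 0.12 (adjusted p = 0.206) and the collagen Col1a2 0.27 ± 0.09 (adjusted p = 0.446). With the level of the fibroblast signature as a covariate beside mouse, an analysis added after seeing the data, 12 genes were called, 11 of them among the 27. Chil1, Lcn2, Saa3, Cxcl5, Cxcl3, Slpi, Slc7a11, Krt15, Krt5, Aqp3 and Mt2 were these 11. The 16 no longer called were the 7 genes named above with low levels relative to the fibroblasts (Hgf, Pik3r5, Spp1, Fbln2, Gpr137b, C3 and Cxcl1) and Lyz1, Lyz2, Vnn1, Slc26a4, Bpifa1, Scgb1a1, Retnla, Adh7 and Cavin2. Their log2 fold changes kept their direction, at 64.1% (Fbln2) to 108% (Scgb1a1) of those without the covariate, and the SE was larger in 14 of the 16. For Hgf the log2 fold change was 0.76 ± 0.18 with the covariate and for Pik3r5 0.77 ± 0.16, against 0.85 ± 0.16 and 0.87 ± 0.14 without it.

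On the lower side the smallest p values were those of genes of basal cells, and the largest decrease among the called genes was in Krt15, a keratin of these cells. Krt15 was at 515, 604, 372 and 221 CPM with vehicle and 255, 290.5, 276 and 96 CPM with SFs. It fell (-0.91 ± 0.11, adjusted p = 4.63e-05) and was lower in each mouse, while the groups overlapped, since both libraries of mouse 4 were low. Krt5, the type II keratin that defines basal cells, was at 1310.2, 1503, 1299.7 and 527 CPM with vehicle and 840.0, 872, 953 and 298 with SFs (-0.68 ± 0.10, adjusted p = 0.000661). Aqp3, a water and glycerol channel of basal cells, was at 379, 420.4, 365 and 136 CPM with vehicle and 249, 223, 238 and 85.9 with SFs (-0.69 ± 0.08, adjusted p = 8.83e-05). In each of these genes mouse 4 had the lowest level with either treatment, so that their calls rest on the comparison within mice. Without the pairing by mouse, that is, without the replicate block, adjusted p was 0.765 for Krt15, 0.874 for Krt5 and 0.861 for Aqp3, and 6 genes were called in all (Chil1, Lcn2, Saa3, Cxcl5, Cxcl3 and Slpi).

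The list of basal keratins and markers with Aqp3 had 14 tested genes, of which 3 fell (Krt15, Krt5 and Aqp3). At an unadjusted p under 0.05, 8 were lower and 0 were higher, and the median was -0.26. The transcription factor Trp63 that maintains basal cells was at 66.9, 82.9, 53.4 and 14.2 CPM with vehicle and 53.5, 33, 42.5 and 19.2 CPM with SFs. It was higher with SFs in mouse 4 and lower in the others (-0.39 ± 0.18, adjusted p = 0.608). The hemidesmosome genes Itgb4 (-0.36 ± 0.09, adjusted p = 0.123), Col17a1 (-0.26 ± 0.11, adjusted p = 0.613) and Dst (0.04 ± 0.11, adjusted p = 0.967) were not called. Trp63 and these 3 were chosen after their values were seen. The summed level of the 14 genes was 4914, 5238, 4474 and 2825 CPM with vehicle and 3810.1, 3634, 3770.0 and 2514 CPM with SFs. Krt14, Krt17 and Ngfr were not among the genes analysed here. Of 7 keratins of simple and luminal epithelium 0 were called, and Krt13 (-0.62 ± 0.19, adjusted p = 0.338) and Krt19 (-0.34 ± 0.12, adjusted p = 0.443) were lower at an unadjusted p under 0.05.

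Airway secretory products were the other group that fell. Scgb1a1, the secretoglobin of club cells, was at 2048, 1939, 1951 and 1692 CPM with vehicle and 915, 1675, 1236 and 977 CPM with SFs. The groups did not overlap, although mouse 2 changed little, and Scgb1a1 fell by 0.71 on the log2 scale (SE 0.14, adjusted p = 0.0349). Bpifa1, an antimicrobial and surface-active protein of the upper airway, was at 1599, 1919.9, 1889.8 and 1321 CPM with vehicle and 1004, 1266, 1305 and 912 CPM with SFs, a decrease in each mouse with groups that were apart by a narrow margin (-0.59 ± 0.11, adjusted p = 0.0147). Retnla, a resistin-like secreted protein of airway epithelium, was at 384, 378, 514 and 508 CPM with vehicle and 245, 313, 323 and 336 CPM with SFs, without overlap (-0.56 ± 0.12, adjusted p = 0.0478). Of 11 secretory cell markers these 3 fell, 7 were lower and 0 higher at an unadjusted p under 0.05, and the median was -0.33, the lowest of the 32 lists. The club cell enzymes Cyp2f2 (-0.33 ± 0.09, adjusted p = 0.269), Cbr2 (-0.40 ± 0.11, adjusted p = 0.213) and Ces1d (-0.41 ± 0.10, adjusted p = 0.134), chosen after their values were seen, were not called. The summed level of the 11 genes was 7157, 7318, 7771 and 6086 CPM with vehicle and 4684, 5705, 5725 and 4635 CPM with SFs, without overlap. Scgb3a1, Scgb3a2, Muc5b and Muc5ac were not among the genes analysed here.

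Adh7, an alcohol dehydrogenase that oxidizes retinol, was at 92.8, 102, 90.4 and 65.8 CPM with vehicle and 60.3, 73.2, 72.4 and 43.8 CPM with SFs (-0.51 ± 0.11, adjusted p = 0.0478). It was lower in each mouse, with overlapping groups. It was the called gene among 27 xenobiotic and aldehyde metabolizing enzymes, of which 7 were lower and 0 higher at an unadjusted p under 0.05 (median -0.15). Ces1d, Cbr2 and Cyp2f2 are in this list too. Mt2, a metallothionein that binds zinc and copper, was at 236, 215, 165 and 193 CPM with vehicle and 131, 146, 147 and 119 CPM with SFs, without overlap (-0.59 ± 0.12, adjusted p = 0.0391). Cavin2, a coat protein of caveolae, was at 168, 164, 175 and 193 CPM with vehicle and 141, 136, 137 and 134 CPM with SFs, the smallest change among the called genes (-0.35 ± 0.07, adjusted p = 0.0478), also without overlap.

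**Figure D3:**
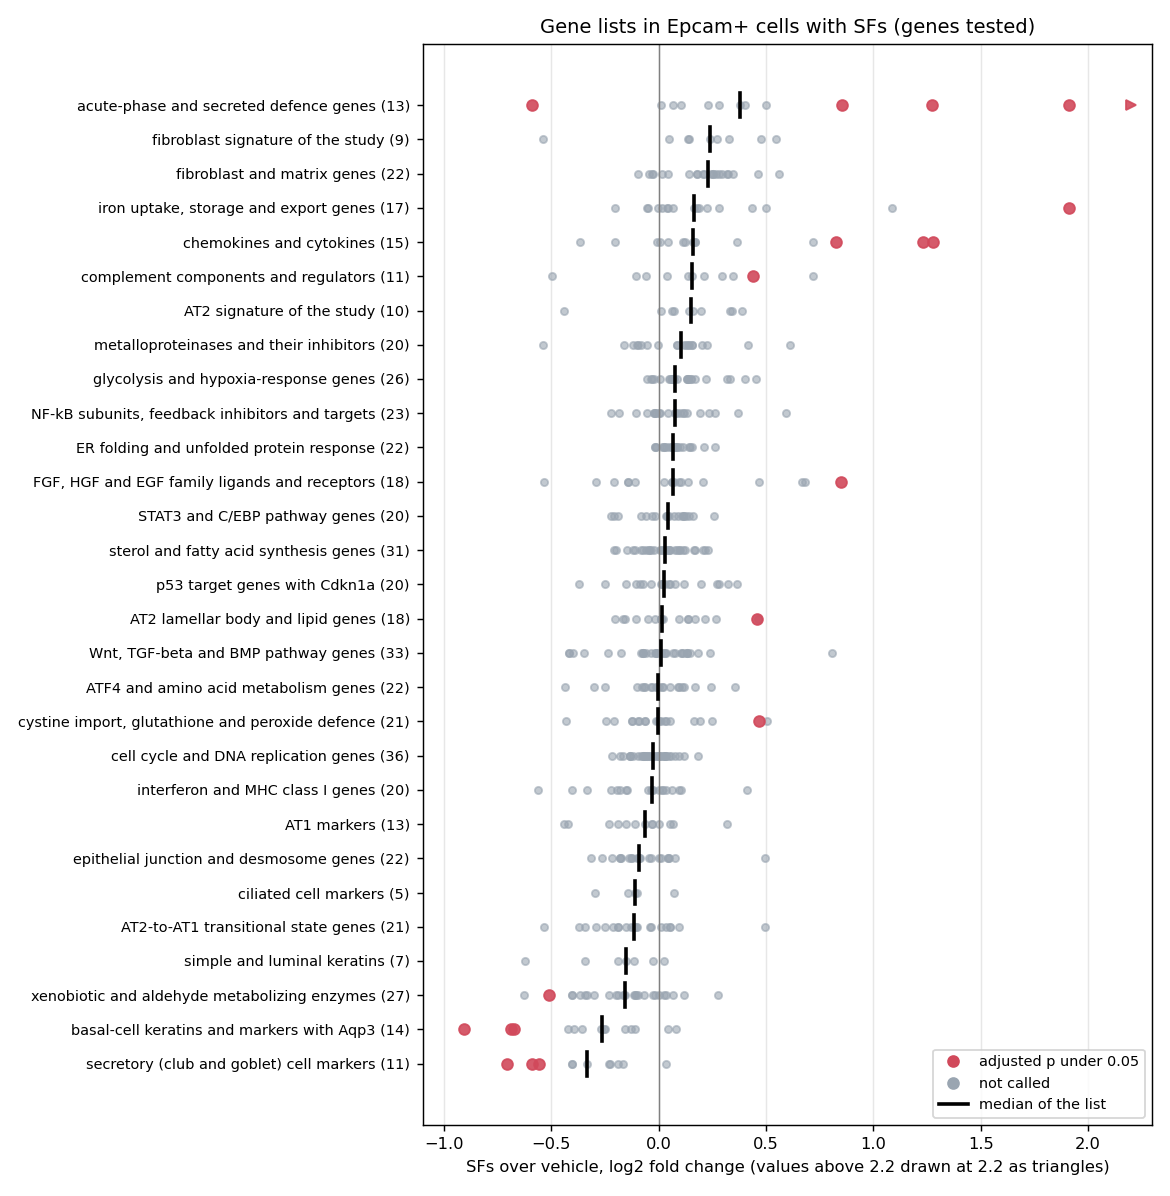
Log2 fold change of SFs over vehicle for each tested gene of the 29 gene lists with 5 or more tested genes (numbers in parentheses), ordered by the list's median (black bars), with called genes in red and values above 2.2 drawn as triangles at 2.2. Acute-phase and secreted defence genes have the highest median (0.38) and secretory cell markers the lowest (-0.33), and most lists hold no called gene. The lists were chosen with earlier results of these data known.

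Markers of the alveolar cell types gave no call apart from Lyz2. With 0.230% of all genes called, 0 calls in such short lists say little. At an unadjusted p under 0.05, 4.39% of all genes were higher and 3.41% lower. Of the study's 10-gene AT2 signature 0 were called, 3 were higher and 1 lower at an unadjusted p under 0.05, and the median was 0.15. Sftpb had 0.01 ± 0.08 (adjusted p = 0.993), Sftpa1 0.20 ± 0.09 (adjusted p = 0.578), Sftpd 0.16 ± 0.09 (adjusted p = 0.716) and the lamellar-body protein Lamp3 0.39 ± 0.11 (adjusted p = 0.275). Sftpc was at 665, 4880.2, 5031 and 6903 CPM with vehicle and 5631, 4661, 4547 and 5679 CPM with SFs. The vehicle library of mouse 1 was far below the others, so the fold change of Sftpc had a wide error (0.33 ± 0.34, adjusted p = 0.873). Of 18 lamellar body and lipid genes Lyz2 was the one called (median 0.02). Of 13 AT1 markers 0 were called, 1 was higher and 4 were lower at an unadjusted p under 0.05 (median -0.07), among them Hopx (-0.44 ± 0.13, adjusted p = 0.338) and Pdpn (-0.42 ± 0.12, adjusted p = 0.271). Of 21 genes of the transitional state between AT2 and AT1 cells 0 were called, 1 was higher and 7 were lower at an unadjusted p under 0.05 (median -0.12). The higher one was Itgb6, the integrin subunit that activates TGF-beta (0.50 ± 0.11, adjusted p = 0.0535), and Krt8 had -0.15 ± 0.08 (adjusted p = 0.664). Of 5 ciliated cell markers 0 were called (median -0.11), with Foxj1 at -0.30 ± 0.11 (adjusted p = 0.484).

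**Figure D4:**
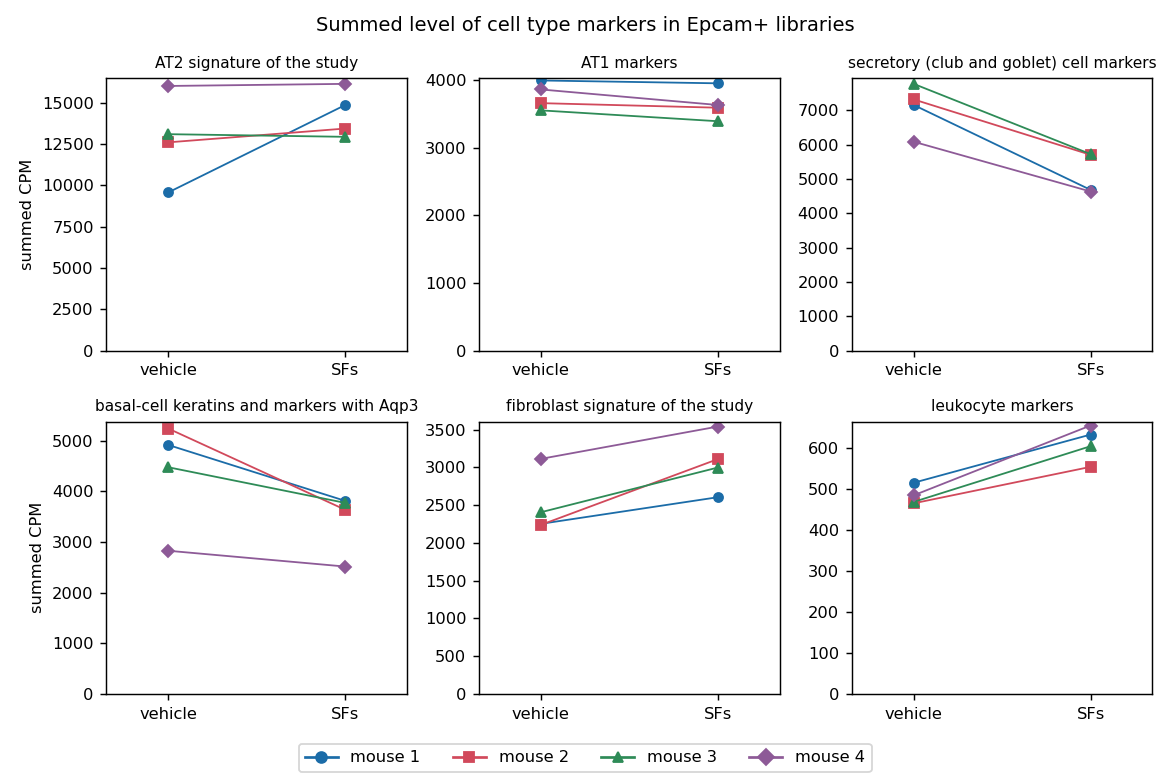
Summed level of the measured genes of 6 cell type marker lists (CPM on the scale of all 32 libraries, axes from 0) with vehicle and with SFs in Epcam+ cells, where a line joins the 2 libraries of 1 mouse. Secretory, basal and AT1 markers are lower with SFs in 4 of 4 mice, with all AT1 sums within 3389 to 3991 CPM. The fibroblast signature and leukocyte markers are higher in 4 of 4, and the rise of the AT2 signature in mouse 1 follows its low vehicle level of Sftpc.

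Genes of growth and metabolism gave few results. Here too 0 calls in a list say little, since 0.230% of all genes were called. At an unadjusted p under 0.05, 4.39% of all genes were higher and 3.41% lower. Of 36 cell cycle and DNA replication genes 0 were called by edgeR, and 2 were lower at an unadjusted p under 0.05. Mki67, the marker of dividing cells, was at 579 to 721 CPM with vehicle and 641 to 703 CPM with SFs (0.03 ± 0.08), and the cell cycle inhibitor Cdkn1a had -0.04 ± 0.09 among 20 p53 targets without a call. The lists of 33 Wnt, TGF-beta and BMP pathway genes, 31 sterol and fatty acid synthesis genes, 22 ATF4 and amino acid metabolism genes, 22 genes of endoplasmic reticulum folding, 20 metalloproteinases and inhibitors and 22 junction genes had 0 calls each, with medians between -0.09 and 0.10. Of 26 glycolysis and hypoxia-response genes 0 were called, 5 were higher at an unadjusted p under 0.05 and the median was 0.08, with Bnip3 at 0.40 ± 0.11 (adjusted p = 0.275) and Vegfa at 0.32 ± 0.09 (adjusted p = 0.317). Of 2 endothelial and 2 mesothelial markers that were measured 0 were called. Osteoglycin transcript, Ogn, was at 7.70, 6.55, 9.65 and 16.7 CPM with vehicle and 11, 7.26, 7.09 and 11.9 CPM with SFs (-0.03 ± 0.26, adjusted p = 0.992).

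Leaving out the libraries of 1 mouse, which also lowers the number of libraries, changed part of the calls. Chil1, Lcn2, Saa3, Cxcl5, Cxcl3, Slpi, Krt15, Krt5 and Aqp3 were called whichever mouse was left out. Without mouse 1 the calls of Slc7a11 and Pik3r5 were lost. Mt2 lost its call without mouse 1 or 2, Bpifa1 without mouse 2 or 3, and Lyz2, Slc26a4 and Retnla without mouse 1 or 3. Hgf, Vnn1, Fbln2, Spp1, Cxcl1 and C3 lost theirs without any 1 of mice 1 to 3, Scgb1a1 without mouse 1, 3 or 4, Lyz1 without mouse 2, 3 or 4, and Gpr137b, Cavin2 and Adh7 without any of the 4. When the dependence of counts on transcript length was taken out library by library, an analysis added after seeing the data, Mt2, Retnla, Scgb1a1, Fbln2, Adh7 and C3 were no longer called.

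The 27 calls end without a gap in p. The last called gene, C3, had an adjusted p of 0.0478, and the next 4 genes had 0.0535. These were Trib2, a pseudokinase that promotes degradation of C/EBP alpha (-0.56 ± 0.12), Itgb6, the zinc importer Slc39a4 (0.38 ± 0.08) and the protease Adamts9 (0.62 ± 0.13). Trib2 was at 80.5, 102, 79.9 and 55.9 CPM with vehicle and 58.1, 50.3, 53.3 and 47.7 CPM with SFs. It was lower in each mouse, with overlap of mouse 1 with SFs and mouse 4 with vehicle. Angptl2, a secreted angiopoietin-like protein, had 0.46 ± 0.10 (adjusted p = 0.083) and the actin-binding protein Cotl1 had -0.39 ± 0.09 (adjusted p = 0.0959).

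The other treatments of the same experiment place these values. OGN is a protein found in the MRC5 secretome and was given alone, and EVs are the vesicle fraction of the same medium. Each comparison with vehicle uses the same 4 vehicle libraries, so the values of SFs, EVs and OGN over vehicle are set side by side only as a description, and the test is of SFs against EVs or OGN directly. For Chil1 the mean was 203 ± 28.6 CPM with vehicle, 490.0 ± 56.8 with SFs, 404 ± 54.5 with EVs and 906 ± 89.9 with OGN (SD, n = 4). For Lcn2 it was 37.9 ± 8.27, 137 ± 24.2, 115 ± 20.5 and 453 ± 60.3 CPM, and for Saa3 0.707 ± 0.328, 12.7 ± 2.03, 7.04 ± 2.56 and 112 ± 12.3 CPM, in the same order. In all 3 genes the OGN level was the highest.

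SFs and OGN differed at 224 genes (1.91% of 11716), 128 higher (1.09%) and 96 lower (0.819%) with SFs. They included 12 of the 27 genes called with SFs, and in each of these the level with OGN was further from vehicle. The difference of SFs from OGN was -3.17 ± 0.18 for Saa3 (adjusted p = 2.68e-10), -1.71 ± 0.13 for Lcn2 (adjusted p = 3.75e-08), -1.39 ± 0.11 for Cxcl5 (adjusted p = 4.74e-08) and -1.30 ± 0.10 for Slpi (adjusted p = 6.5e-08). Chil1, Cxcl3, Slc7a11, Vnn1, Hgf, Slc26a4, Lyz1 and, on the lower side, Adh7 were the others. For the basal genes the direct difference was small, 0.23 ± 0.11 for Krt15 (adjusted p = 0.307), -0.10 ± 0.10 for Krt5 (adjusted p = 0.7) and 0.01 ± 0.08 for Aqp3 (adjusted p = 0.978). Pik3r5 (0.12 ± 0.13, adjusted p = 0.739) and Fbln2 (-0.06 ± 0.09, adjusted p = 0.827) were likewise not called.

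SFs and EVs differed at 3 genes (0.0256%). Slc34a2, the phosphate transporter of AT2 cells, was higher by 0.45 ± 0.08 with SFs than with EVs and the aldehyde oxidase Aox3 by 0.44 ± 0.08, and the mitochondrial ribosomal RNA mt-Rnr2 was lower by -0.51 ± 0.09 (adjusted p = 0.0315, 0.0332 and 0.0315). With vehicle, SFs and EVs the mean of Slc34a2 was 945 ± 88.7, 1044 ± 158 and 760 ± 71.4 CPM. For Aox3 it was 211 ± 26.2, 208 ± 19.4 and 154 ± 10.7 CPM, and for mt-Rnr2 3028 ± 232, 2498 ± 331 and 3572 ± 563 CPM. Over vehicle, Slc34a2 had 0.14 ± 0.08 with SFs and -0.31 ± 0.07 with EVs, and Aox3 -0.01 ± 0.08 and -0.45 ± 0.08. None of the 3 genes is among the 27. Of the 27 genes 0 differed between SFs and EVs by edgeR, 10 had an unadjusted p under 0.05 (5.00% of all genes), and 3 were called by DESeq2 on the same libraries (Lyz1, Lyz2 and Slc7a11). DESeq2 on only the groups compared called 4, these and Chil1. For Slc7a11 the mean was 128 ± 15.3 CPM with vehicle, 176 ± 14.2 with SFs and 135 ± 22.8 with EVs, a difference of 0.39 ± 0.08 between SFs and EVs (adjusted p = 0.121). For Lyz2 these means were 220.3 ± 30.4, 301 ± 57.6 and 219 ± 42 CPM, a difference of 0.47 ± 0.09 (adjusted p = 0.0695), and for Lyz1 11.8 ± 2.44, 23.3 ± 3.99 and 14.3 ± 2.73 CPM, a difference of 0.69 ± 0.17 (adjusted p = 0.265). For Hgf the difference was 0.00 ± 0.14 and for Krt5 0.03 ± 0.10. The doses of the fractions were set in different units, so equal exposure cannot be assumed.

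**Figure D5:**
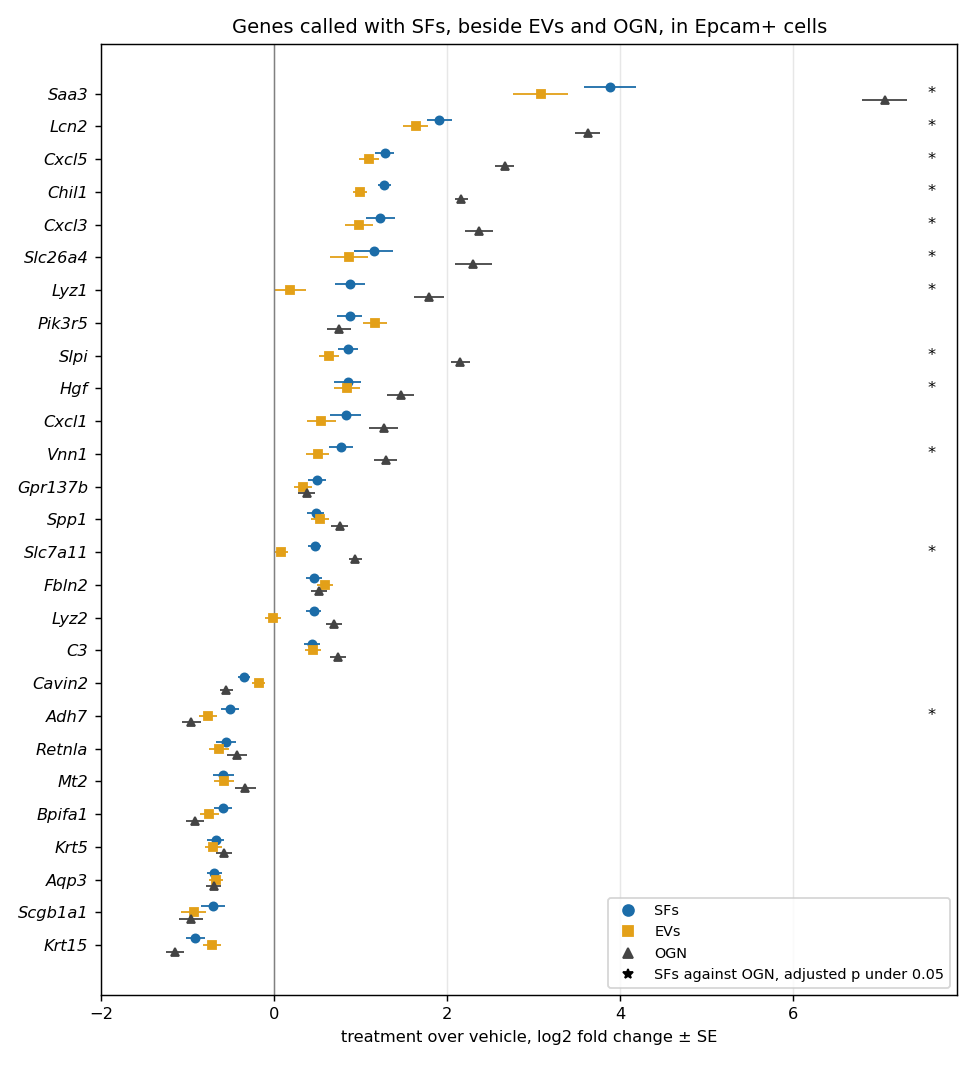
Log2 fold change over vehicle with its SE for SFs (circles), EVs (squares) and OGN (triangles) of the 27 genes called with SFs in Epcam+ cells, where an asterisk marks genes that differed between SFs and OGN. OGN stands further from 0 than SFs in the 12 marked genes (7.06 against 3.88 for Saa3), and the 3 treatments lie close together for Krt5, Aqp3 and Fbln2, and all of them share the same vehicle libraries.

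In the CCL206 fibroblasts re-sorted from the same cultures 5 of the 27 genes were called with SFs in a model of all 32 libraries (13 genes of 11805, 0.110%), and 16 had an unadjusted p under 0.05 (6.51% of all genes). The 5 were Chil1 (0.96 ± 0.11), Lcn2 (2.33 ± 0.17), Saa3 (5.04 ± 0.39), Cxcl5 (1.07 ± 0.16) and Slpi (1.10 ± 0.16), all higher. The fibroblast libraries also held AT2 transcripts. With vehicle the summed AT2 signature was at 4795, 2940, 3263 and 1870 CPM there, against 9573, 12602, 13096 and 16012 CPM in the Epcam+ libraries. Whether epithelial RNA in the fibroblast libraries had a part in these calls was not tested. Lcn2 had a mean of 10.7 ± 2.34 CPM in the fibroblasts with vehicle and 54.2 ± 13.4 with SFs, and Saa3 of 0.426 ± 0.510 and 15.2 ± 2.61 CPM (SD, n = 4). Hgf had 0.32 ± 0.16 there (adjusted p = 0.796), C3 0.31 ± 0.15 (adjusted p = 0.754) and Gpr137b 0.00 ± 0.11 (adjusted p = 1). For Hgf the study reports a significant increase with SFs in the fibroblasts, among growth factors it had selected. The p values given here are instead adjusted over 11805 genes. Whether the response to SFs differed between the populations was tested as an interaction, and 0 of 11805 genes were called (590 with an unadjusted p under 0.05, 5.00%). With only the groups compared edgeR called 32 genes. By DESeq2 2 genes were called over all libraries, 0 of them among the 27, and 75 with only the groups compared, 2 of them among the 27 (Lyz1 and Gpr137b). The edgeR interaction over all libraries was also run on simulated data with genes changed in Epcam+ cells alone. It recovered 17 of 68 genes changed 1.5-fold, 40 of 63 changed 2-fold and 67 of 69 changed 4-fold, so many smaller differences would be missed. Of the 27 genes 6 had an unadjusted p under 0.05 in the interaction (Lyz1, Mt2, Gpr137b, Pik3r5, Bpifa1 and Chil1). Lyz1 had -0.82 ± 0.39 and Mt2 0.26 ± 0.16 in the fibroblasts. Krt5 had a mean of 3.35 ± 0.419 CPM in vehicle-treated fibroblasts, and Krt15 of 1.78 ± 0.977 CPM, against 1.85 ± 1.87 and 1.32 ± 0.321 CPM with SFs. Neither was called there (Krt5 -0.96 ± 0.44, adjusted p = 0.722, and Krt15 -0.39 ± 0.57, adjusted p = 1), and Krt5 was lower at an unadjusted p under 0.05.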

How the data were processed

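RNA of Epcam+ cells re-sorted from organoid cultures of 4 mice was analyzed. Per the labels, reads were trimmed with Trimmomatic 0.30, aligned and counted. The authors deposited raw counts per gene without normalization, as 1 table of 11818 genes and 32 columns, in which every gene had at least 1 count in every library. The methods name GRCm38 patch 6 and the labels GRCm39. The aligner, counter and annotation are not given in the sources used here. The authors' own analysis used DESeq2 (1.34.0).

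Genes were filtered with filterByExpr and scaled by TMM in edgeR 4.0.16 (R 4.3.3), and SFs and vehicle were compared by the quasi-likelihood F test over the 16 Epcam+ libraries with mouse as a block, with Benjamini-Hochberg adjustment over 11716 genes and calls at 0.05. SE was obtained as |log2 fold change|/√F. The response in both populations was compared over 32 libraries, with mouse within population (11805 genes). Mouse numbers in the labels pair the libraries. Deviations from group means correlated at a mean r of 0.226 (0.0805 to 0.491) within mice and -0.0706 (-0.366 to 0.129) between mice. The vehicle library of the same mouse gave the highest r for 3 of the 4 SF libraries. For mouse 4 that of mouse 1 was higher (0.129 against 0.0805). No libraries were identical.

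The comparison, gene lists and named genes (all called genes, called members of each list or its 2 smallest p, and the 6 genes after the threshold) were chosen with earlier results of these data known. Lists are described by counts and medians, with no set test. Promoters are RefSeq windows on GRCm38.p6. The method was tested on simulated data. Alternatives were no replicate block, DESeq2 1.42.0, other size factors and filters, only the groups compared, thinning, leaving out each mouse and 3 added later. Figures were drawn with matplotlib 3.10.9.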

Additional observations from a re-analysis of the deposited data

Results flagged for a closer look

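The levels of the 27 called genes and the total counts were screened in the 4 libraries with vehicle and the 4 with SFs, as 56 sets of 4 values. In 3 sets 1 value stood far from the other 3, where about 1 in 20 is flagged by chance (Dixon's test). The number flagged is near that rate, and the sets come from the same 8 libraries and are not independent. Aqp3 was at 85.9 CPM in mouse 4 with SFs, against 223 to 249 CPM in the other mice with SFs. In mouse 4 the vehicle library was low as well (136 CPM), as were both libraries for Krt5 and Krt15. Slc7a11 was at 155 CPM in mouse 2 with SFs, against up to 184 CPM in the others. That library was also the shallowest, and the vehicle library of mouse 2 had the lowest Slc7a11 level of its group. The total of the vehicle library of mouse 1 was 16662822 counts, against 3067660 to 4833350 in the other vehicle libraries. By edgeR over all 32 libraries 0 genes passed the test of a difference between the populations in the response to SFs, and 32 passed it with only the groups compared.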

How the results depend on the processing

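Over 15 alternative analyses none of the 27 called genes changed its direction. Among the named genes without a call, 26 values had the opposite sign to the main fit. In 55 other values a gene without a call in the main fit was called in an alternative, so the absence of a call also depends on the processing. Of the 27 genes, 6 (Chil1, Lcn2, Saa3, Cxcl5, Cxcl3 and Slpi) were called in each alternative that tested them, while 15 were called in 10 or more. Krt15, Krt5 and Aqp3 lost their call without the replicate block and in no other alternative. Cxcl1, C3, Cavin2 and Adh7 were called in 5 or 6. Without the replicate block, that is without the pairing by mouse, 6 genes were called for SFs against vehicle, 0 for SFs against EVs and 74 for SFs against OGN. DESeq2 on the same libraries called 54, 24 and 388, and 2 for the difference between the populations. DESeq2 on only the groups compared called 55, 32, 141 and 75, and edgeR on only these groups 42 (23 of them among the 27), 1, 77 and 32. The cause of these differences was not tested. With 1 mouse left out, SFs against vehicle gave 11 (without mouse 1) to 32 calls (without mouse 4), with 17 and 13 without mice 2 and 3. SFs against EVs gave 0 to 2 and SFs against OGN 72 to 136, with fewer mice in each. The fibroblast signature as a covariate left 12 calls. Without the SF library of mouse 2, the shallowest, 17 were called, 16 of them among the 27. Both were chosen after seeing the data. So was removal of each library's trend with transcript length (26 calls, 21 shared), tried because log2 fold changes rose with length (Spearman's rho 0.23 across 11517 genes, which are not independent, and -0.05 to 0.29 in single mice). Other size factors, other count filters and thinning to the shallowest library gave 19 to 27 calls. In simulated data of this design 60 of 85 genes changed 1.5-fold were recovered, 60 of 65 changed 2-fold and 50 of 50 changed 4-fold, with 9 other genes called of 11704 tested, so a part of the changes of 1.5-fold would be missed. The changed genes were drawn from those with a mean of at least 50 reads, so recovery of genes with fewer reads was not tested.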

Other observations

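Several genes chosen after their values were seen were lower in 4 of 4 mice without passing the test. Mt1, the metallothionein next to Mt2, was at 226, 223, 194 and 219 CPM with vehicle and 166, 192, 139.7 and 132 CPM with SFs (-0.48 ± 0.12, adjusted p = 0.133). The immediate-early gene Ier2 was at 79.5, 89.8, 65.7 and 61.3 CPM with vehicle and 52.7, 59.8, 45.8 and 48.2 CPM with SFs (-0.52 ± 0.13, adjusted p = 0.134), without overlap. The histone gene H3f3b (-0.36 ± 0.10, adjusted p = 0.269) and Hes1, a repressor downstream of Notch (-0.45 ± 0.13, adjusted p = 0.266), were others. Lgr6, an R-spondin receptor of some progenitor cells, was at 55.8, 72.7, 46.8 and 25.2 CPM with vehicle and 37.8, 40.2, 31.7 and 23.7 CPM with SFs (-0.53 ± 0.13, adjusted p = 0.153).

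Vnn3, a pantetheinase related to Vnn1, was at 5.03, 4.59, 4.93 and 3.12 CPM with vehicle and 12.4, 1.68, 8.57 and 11.5 CPM with SFs (1.09 ± 0.30, adjusted p = 0.26), lower in mouse 2 and higher in the others. Arrdc3, an arrestin-domain protein, was at 170.3, 176, 71.7 and 97 CPM with vehicle and 91.8, 52.5, 79.5 and 69.8 CPM with SFs (-0.70 ± 0.18, adjusted p = 0.151), with the vehicle libraries of mice 1 and 2 apart from those of mice 3 and 4. In the comparison between the populations the smallest p was that of the alarmin Il33, with a log2 fold change with SFs of 0.18 in Epcam+ cells and 0.78 in the fibroblasts (adjusted p = 0.674).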
